A study of Mus musculus with 9 samples.

Results

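AP-1 is a family of transcription factors that bind DNA as pairs of basic leucine zipper (bZIP) proteins. The genes described here were Fos, Fosb, Fosl1, Fosl2, Jun, Junb, Jund, Atf3 and Batf3, chosen by the gene symbol that the platform annotation gives each probe set. Each of the 9 had 1 probe set, so they made up 9 of 24922 probe sets and 9 of 19752 named genes. All 9 passed the filter on low values, which kept 17445 probe sets. Their levels were compared across sorted innate lymphoid cells (ILCs) from mouse skin.

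The mice were females on the B6 background in which 1 allele of Ccr10, a chemokine receptor gene of skin lymphocytes, carries EGFP (CCR10+/EGFP). All 4 groups share this allele, so GFP stands in for Ccr10 activity. The mice either had functional Rag1 (called Rag1-sufficient here) or lacked it (Rag1-/-CCR10+/EGFP). Rag1 is needed to assemble antigen receptors, and mice without it have no mature T or B cells. Skin cells that bore CD45.2, lacked CD3 and lacked the other exclusion markers (CD5, CD11b, B220, 7-4, Gr-1 and a Ter antigen) were sorted as GFP+ or GFP- straight into Trizol. The groups held 2 arrays of Rag1-sufficient GFP+ cells, 2 of Rag1-sufficient GFP- cells, 2 of Rag1-/- GFP+ cells and 3 of Rag1-/- GFP- cells. Age is not in the labels, nor is it said that each replicate was its own mouse or pool. The p-values therefore cover only how these samples scattered, which can be technical scatter. GFP- cells are defined only by the absence of signal and of the exclusion markers, and that panel names no mast cell marker.

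The genotype label could not be checked on the array, and the GFP label was not borne out by Ccr10 transcript. Rag1 read 28.4 to 31.4 on all 9 arrays, below the filter in both genotypes. Ccr10 transcript differed between GFP+ and GFP- cells by 0.19 ± 0.20 (log2, SE, adjusted p = 0.801) in Rag1-sufficient and 0.10 ± 0.18 (SE, adjusted p = 0.872) in Rag1-/- mice, and turned to -0.21 in Rag1-/- mice without replicate 1 of the GFP+ group. The ILC genes Id2 and Il7r were bright in every group, with mean intensities of 7316 to 7510.1 for Id2 and 2952 to 3426 for Il7r. The 9 arrays had medians of 74.1 to 77.6. Rank correlations were 0.981 to 0.992 within groups and 0.975 to 0.993 between groups. No array duplicated another, although 50% of probe sets held a value shared by at least 2 arrays. Signal from mast cell markers differed between groups. The summed intensity of 12 such markers was 945 and 1028 on the Rag1-sufficient GFP+ arrays and 10560 and 10739 on the Rag1-sufficient GFP- arrays. It was 4919 and 1384 on the Rag1-/- GFP+ arrays, so these replicates stood apart from each other, and 6161, 4857 and 4852 on the Rag1-/- GFP- arrays. In sorted bulk samples, fewer cells of a type and less RNA per cell cannot be told apart.

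Fos proteins cannot pair with each other and bind DNA with a Jun partner, whereas Jun proteins also pair among themselves. Fos, Fosb, Jun, Junb and Atf3 are immediate early genes, whose transcription starts within minutes of a signal without new protein synthesis. MAP kinases both switch on their promoters and phosphorylate the proteins. Fosl1 and Fosl2 are slower Fos relatives that lack the strong activation domain of Fos. Junb often opposes Jun, Jund is expressed more steadily, Atf3 is a stress-induced factor that can repress, and Batf3 is a short bZIP protein needed for cross-presenting dendritic cells. In ILCs, AP-1 acts with other factors on cytokine genes. It is also induced when tissue is digested and cells are sorted.

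Some promoters of the family carry the elements that bZIP factors bind, which is how family members can act on each other's genes. The 3 below are shown because they held a match to such an element in the 250 bases before the transcription start. They come from a RefSeq table (GRCm38.p6) in which 8 of the 9 genes were matched; the promoter of Fosl1 was not analysed here. The elements searched were TGANTCA (the TPA response element), TGACNTCA (its 8-base relative), TGACGT (the core of the cAMP response element) and TATAAA (the TATA box), on both strands; TGACNTCA and TGACGT can overlap. Each run is the 120 bases before the start on the gene's strand, with matches in capitals.
Fos: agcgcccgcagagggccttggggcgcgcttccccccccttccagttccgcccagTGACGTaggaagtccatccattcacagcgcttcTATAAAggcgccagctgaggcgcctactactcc
Jun: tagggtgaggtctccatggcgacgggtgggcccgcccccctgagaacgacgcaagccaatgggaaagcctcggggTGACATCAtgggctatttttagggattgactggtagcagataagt
Atf3: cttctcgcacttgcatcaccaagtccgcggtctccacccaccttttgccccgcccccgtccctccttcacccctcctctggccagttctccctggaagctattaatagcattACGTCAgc
The Fos stretch lies at chr12:85473770-85473889 on the plus strand, with TGACGT at positions -66 to -61 and TATAAA at -33 to -28 from the start. The Jun stretch lies at chr4:95052223-95052342 on the minus strand, with TGACATCA at -45 to -38. The Atf3 stretch lies at chr1:191183334-191183453 on the minus strand and holds TGACGT on the opposite strand, read here as ACGTCA, at -8 to -3. Of 27025 promoters of the same length, 6.87% held TGANTCA, 7.59% held TGACNTCA, 6.56% held TGACGT and 13% held TATAAA. The windows of Fosb, Fosl2, Junb, Jund and Batf3 had no match to these letters. A match is a description of the letters and not a measured site.

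Jun, the founding partner of Fos in AP-1, varied most within the family. Its intensity was 458 and 494 on the Rag1-sufficient GFP+ arrays, 677 and 572 on the Rag1-/- GFP+ arrays, 759, 787 and 848 on the Rag1-/- GFP- arrays, and 1079 and 1205 on the Rag1-sufficient GFP- arrays. No neighbouring groups in this order overlapped. The group means were 476 ± 25.7 (SD, n = 2), 625 ± 74.1 (SD, n = 2), 798 ± 45.4 (SD, n = 3) and 1142 ± 88.7 (SD, n = 2). From its lowest to its highest array, Jun spanned 1.40 on the log2 scale, a wider span than 94.8% of probe sets, whose median span was 0.52.

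Junb and Jund did not follow that order. Junb read 2369.6 and 2178 on the Rag1-sufficient GFP+ arrays, 2511 and 2354 on the Rag1-sufficient GFP- arrays, 2045 and 2474 on the Rag1-/- GFP+ arrays, and 2518, 2756 and 2023 on the Rag1-/- GFP- arrays. The 4 groups of Junb overlapped, and its log2 span of 0.45 was wider than that of 38.8% of probe sets. Jund read 745 and 606 on the Rag1-sufficient GFP+ arrays and 799 and 809 on the Rag1-sufficient GFP- arrays. On the Rag1-/- arrays it read 806 and 794 in GFP+ cells and 787, 1159 and 869 in GFP- cells. The Rag1-sufficient GFP+ arrays were the lowest for Jund and replicate 2 of the Rag1-/- GFP- group the highest, a log2 span of 0.93.

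Fos, the Jun partner after which the other branch of the family is named, was also lowest in Rag1-sufficient GFP+ cells. It read 832 and 689 there, 1078 and 1011 in Rag1-/- GFP+ cells, 1070.3, 1124 and 1104 in Rag1-/- GFP- cells, and 1350.3 and 1519 in Rag1-sufficient GFP- cells. Both Rag1-sufficient groups lay outside all other arrays, while the Rag1-/- groups overlapped. The means were 760.5 ± 101 (SD, n = 2), 1045 ± 47.4 (SD, n = 2), 1099 ± 27.04 (SD, n = 3) and 1435 ± 119.5 (SD, n = 2) in the same order.

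Fosb, the closest Fos relative, showed the same extremes. Its values were 1636 and 1488 in Rag1-sufficient GFP+ cells and 2544 and 2709.5 in Rag1-sufficient GFP- cells. The Rag1-/- arrays lay between these groups, at 2354 and 1974 for GFP+ cells and 2145, 2049 and 1657 for GFP- cells, and they overlapped with each other. Fosl2 read 1991 and 2349 in Rag1-sufficient GFP+ cells, 2281 and 2378 in Rag1-sufficient GFP- cells, 2427 and 2457 in Rag1-/- GFP+ cells, and 2649.8, 2482 and 1655 in Rag1-/- GFP- cells. Its highest and its lowest array belonged to the same group, the Rag1-/- GFP- cells. Fosl1 read 286 on both Rag1-sufficient GFP+ arrays, 357 and 348 in Rag1-sufficient GFP- cells, 277 and 286 in Rag1-/- GFP+ cells, and 365, 222 and 214 in Rag1-/- GFP- cells. The same Fosl1 value stood on 3 arrays, which happened for no other AP-1 gene, so its spread within the Rag1-sufficient GFP+ group is not a measure of error.

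Atf3 read 1698 and 1487 in Rag1-sufficient GFP+ cells, 2017 and 1980 in Rag1-sufficient GFP- cells, 1263 and 1506 in Rag1-/- GFP+ cells, and 1726, 1528 and 1643 in Rag1-/- GFP- cells. For Atf3 the Rag1-sufficient GFP- arrays were the highest and an array of Rag1-/- GFP+ cells was the lowest. Batf3 read 91.6 and 80.3 in Rag1-sufficient GFP+ cells and 93.6 and 93.4 in Rag1-sufficient GFP- cells. In Rag1-/- mice it read 104 and 86.7 in GFP+ cells and 83.4, 93.2 and 82.2 in GFP- cells. Its span of 0.38 was wider than that of 27.1% of probe sets, the narrowest of the family.

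**Figure D1:**
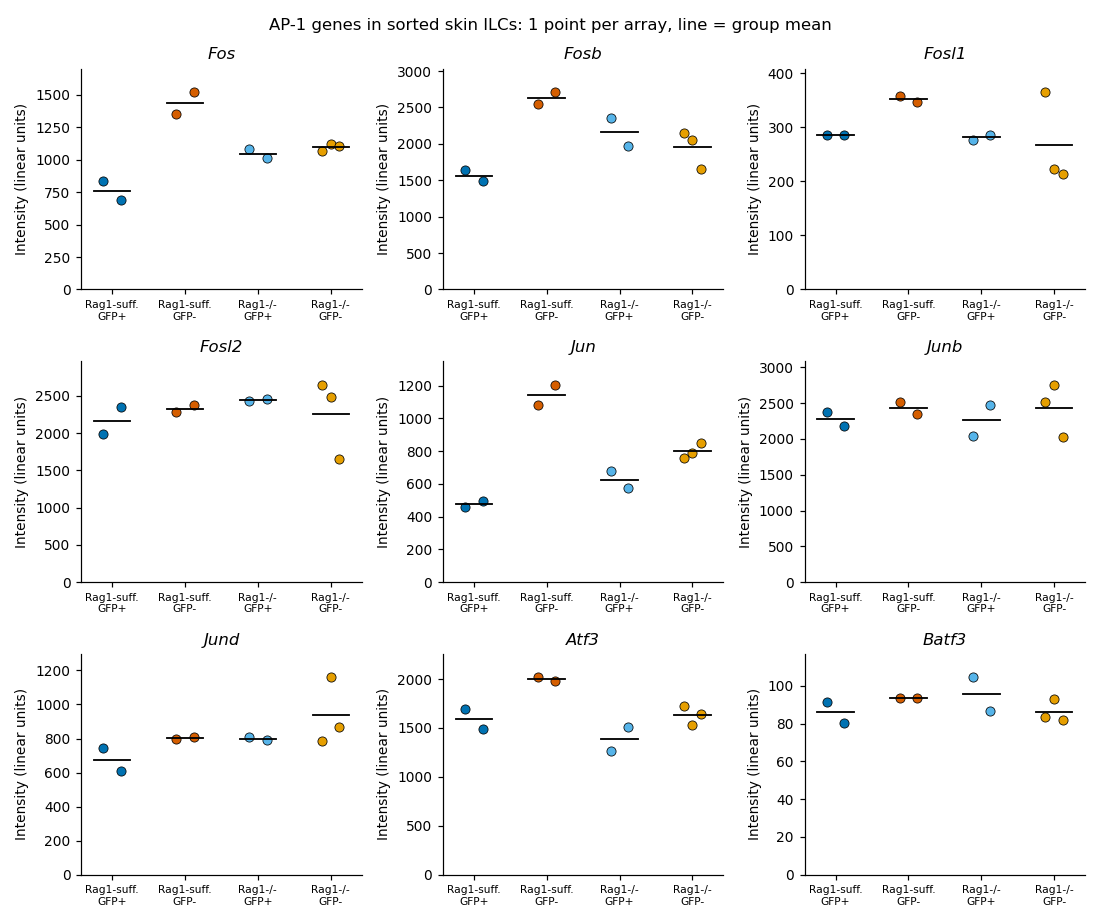
Linear intensity of each AP-1 gene (vertical axis from 0) on every array, by group; each point is an array and each line a group mean. Jun ran from 458 to 494 in Rag1-sufficient GFP+ cells up to 1079 and 1205 in Rag1-sufficient GFP- cells without overlap between groups, whereas the groups of Junb overlapped.

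The first comparison asks how the GFP+ cells differ from the GFP- cells in skin that has T and B cells. In Rag1-sufficient mice, Jun was lower in GFP+ than in GFP- cells by 2.40-fold and Fos by 1.89-fold. The log2 difference, GFP+ minus GFP-, was -1.26 ± 0.16 (SE) for Jun, with an adjusted p of 0.0119, and -0.92 ± 0.15 (SE) for Fos, with an adjusted p of 0.0337. The adjusted p comes from limma with Benjamini-Hochberg adjustment over all 17445 probe sets, and a probe set is called changed where it is under 0.05. Fosb had a difference of -0.75 ± 0.16 (SE) and an adjusted p of 0.0898, and was not called. With array weights it was (adjusted p = 0.00649), in a fit that called 1290 of 17445 probe sets, against 140 without weights.

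The remaining 6 genes had smaller differences, all with the same sign and none called. Atf3 differed by -0.33 ± 0.14 (SE, adjusted p = 0.373), Fosl1 by -0.30 ± 0.24 (SE, adjusted p = 0.712) and Jund by -0.26 ± 0.20 (SE, adjusted p = 0.701). The values were -0.12 ± 0.12 for Batf3, -0.11 ± 0.21 for Fosl2 and -0.10 ± 0.17 for Junb (SE), with adjusted p of 0.784, 0.920 and 0.902. So 2 of 9 AP-1 genes were called, where 0.803% of all probe sets were called in either direction and 0.47% as lower. The median difference of the 9 was -0.30, beside 0.01 over all probe sets, of which 46.4% were negative. An unadjusted p under 0.05 was held by 4 of the 9 and by 2264 of 17445 probe sets. GFP+ arrays were lower than every GFP- array for 7 of the 9 (all but Fosl2 and Junb), which held for 21.2% of all probe sets.

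**Figure D2:**
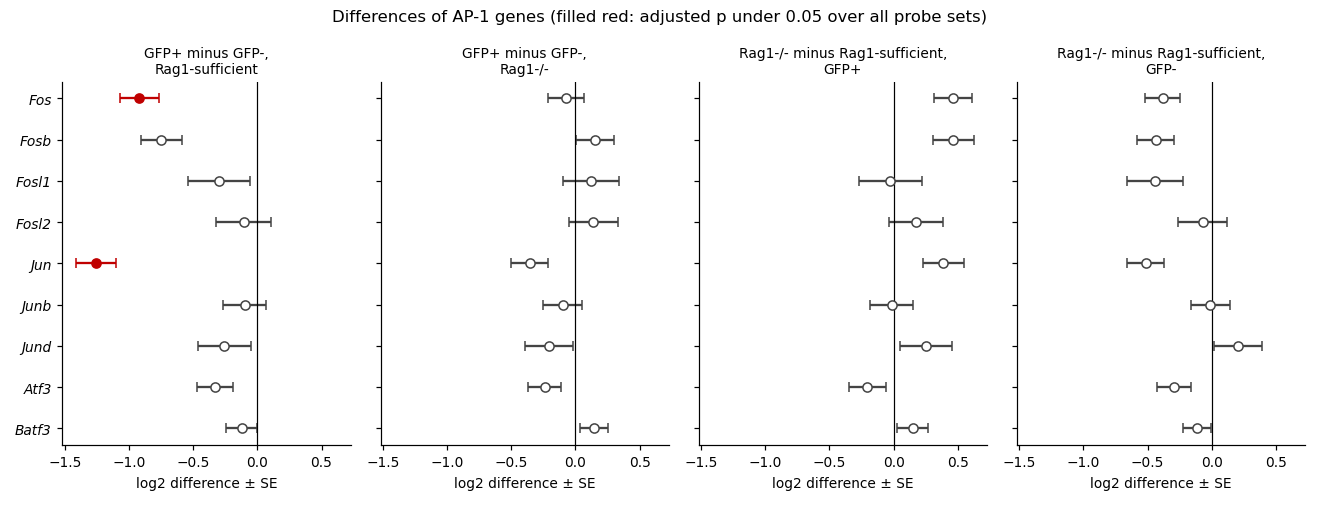
Log2 differences with standard errors (horizontal axis) for the AP-1 genes in the comparisons of GFP fraction and of Rag1 genotype; filled red points have an adjusted p under 0.05. Jun at -1.26 and Fos at -0.92 are the points called, both for GFP+ minus GFP- in Rag1-sufficient mice.

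Both calls rest on few arrays. Without each Rag1-sufficient array in turn, Jun differed by -1.34 to -1.18 with adjusted p of 0.105 to 0.181, and Fos by -1.05 to -0.78 with adjusted p of 0.115 to 0.382. Each such fit leaves an array alone in its group, which is then assumed to vary like the others. The Fos call was also lost without replicate 2 of the Rag1-/- GFP- group (adjusted p = 0.0812) in a fit of only the groups compared (adjusted p = 0.0794) and with replicate number as a block (adjusted p = 0.0990). Jun was called in both of those fits, with an adjusted p of 0.0492 and 0.0473. Among the genes not called, leaving out an array gave differences of -0.426 to -0.235 for Atf3, -0.407 to -0.110 for Jund and -0.226 to 0.0126 for Fosl2.

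**Figure D3:**
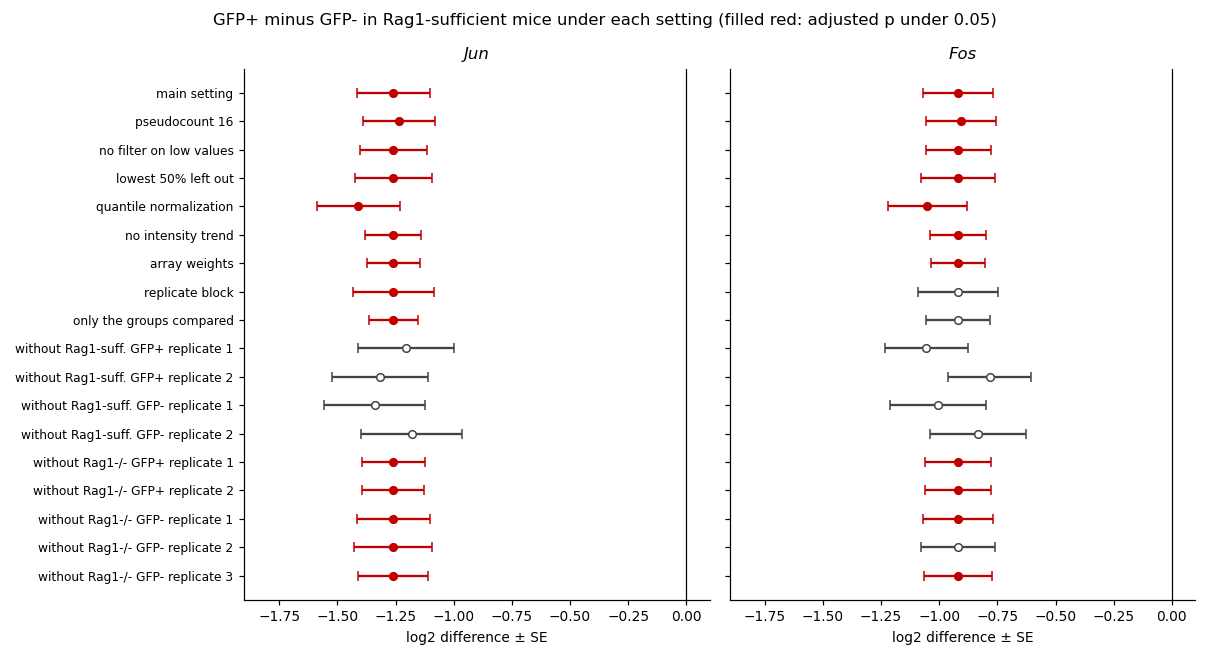
Log2 difference with standard error, GFP+ minus GFP- in Rag1-sufficient mice, for Jun and Fos under every processing setting and with each array left out; filled red points have an adjusted p under 0.05. Jun stayed between -1.41 and -1.18 and Fos between -1.05 and -0.78, and neither was called when any 1 of the Rag1-sufficient arrays was left out.

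Mast cell markers differed in the same direction in this comparison. Of 9 mast cell markers kept by the filter, 7 were called lower in GFP+ cells and all 9 were negative, with a median of -2.30. Cpa3, a mast cell granule protease, ran from 20.3 to 21.5 in Rag1-sufficient GFP+ cells and from 4932 to 4965 in Rag1-sufficient GFP- cells. Kit, a receptor of mast cells and of some ILCs, differed by -1.38 ± 0.22 (SE, adjusted p = 0.0298). The dendritic cell receptor gene Xcr1 was called lower as well (-0.78 ± 0.07, SE, adjusted p = 0.00843), the single call among 6 dendritic and Langerhans markers kept. The summed keratinocyte markers were 1006 to 1049 in GFP+ and 1227 to 2495 in GFP- cells of these mice, those of macrophages 411 to 423 and 515 to 574, and those of fibroblasts 1207 to 2023 and 1593 to 2127. Summed endothelial markers were 340 to 392 in GFP+ and 397 to 449.8 in GFP- cells. The filter kept 5 of 8 macrophage and 4 of 5 endothelial markers, and their sums include the probe sets under it. The 5 neutrophil markers were all under the filter. The part of these cells in the Jun and Fos differences was not tested.

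The replicates of the Rag1-/- GFP+ group, which differed in mast cell signal, can be set beside the others. Replicate 2 of the Rag1-/- GFP+ group had a mast cell sum of 1384, near the 945 and 1028 of the Rag1-sufficient GFP+ arrays. Sums this low were mostly Kit, which some ILCs also express. Kit was at least 974 on the Rag1-/- GFP+ arrays and 482 to 583 on the Rag1-sufficient GFP+ arrays. As a mean log2 deviation over the 9 markers kept, mast cell signal was -1.74 on replicate 2 of the Rag1-/- GFP+ group, beside -1.68 and -1.67 on the Rag1-sufficient GFP+ arrays. On that array Jun was 572 and Fos 1011, both above the Rag1-sufficient GFP+ arrays. Replicate 1 of the same group had a mast cell sum of 4919, with Jun at 677 and Fos at 1078. These are single arrays set beside arrays of another genotype, and the part of mast cells in the Jun and Fos values was not tested.

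**Figure D4:**
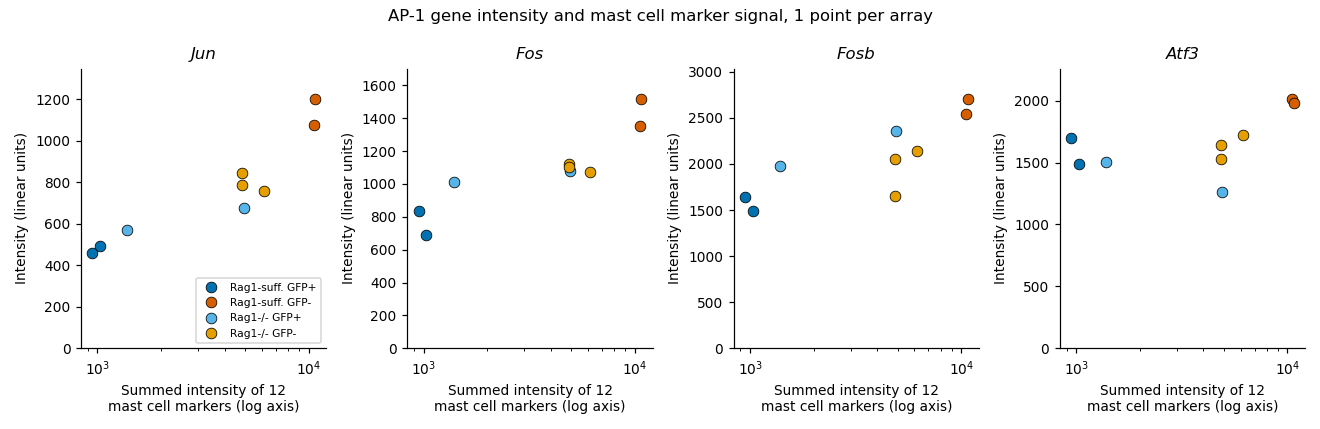
Linear intensity of AP-1 genes (vertical axis) against the summed intensity of 12 mast cell markers on the same array (horizontal log axis); each point is an array, coloured by group. The Rag1-sufficient GFP- arrays, with sums of 10560 and 10739, had the highest Jun and Fos, and the Rag1-sufficient GFP+ arrays, with 945 and 1028, the lowest.

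In Rag1-/- mice the same comparison asks how the GFP fractions differ where T and B cells are missing. No AP-1 gene was called there by limma, and 1 of 9 (Jun) had an unadjusted p under 0.05. Jun differed by -0.36 ± 0.14 (SE), Atf3 by -0.24 ± 0.13, Fos by -0.07 ± 0.14 and Fosb by 0.15 ± 0.15. Their adjusted p were 0.688, 0.688, 0.869 and 0.746. After quantile normalization the values were -0.20 for Jun, -0.08 for Atf3 and 0.07 for Fos. With an array left out, they ran from -0.48 to -0.23 for Jun, -0.37 to -0.11 for Atf3, -0.12 to -0.03 for Fos and 0.03 to 0.28 for Fosb, with both ends of each range reached by leaving out a Rag1-/- GFP+ array. Over the whole array 0% of probe sets were called, with 1098 at an unadjusted p under 0.05 and a smallest adjusted p of 0.688. Of the 9 differences 5 were negative and 4 positive, with a median of -0.07. Jun and Atf3 were lower on both GFP+ arrays than on every GFP- array, as were 10.1% of all probe sets; after quantile normalization no AP-1 gene was. The mast cell markers were negative in 9 of 9 with a median of -0.77, and 0 were called, with 6 at an unadjusted p under 0.05.

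Whether the GFP difference itself differed between genotypes was tested as an interaction. The value, the Rag1-/- difference minus the Rag1-sufficient difference, was 0.90 ± 0.21 (SE) for Jun, 0.90 ± 0.22 for Fosb and 0.85 ± 0.20 for Fos. None passed, with adjusted p of 0.229, 0.230 and 0.232. These 3 genes had an unadjusted p under 0.05, and the other 6 did not. By this test 0% of all probe sets were called, with 2378 at an unadjusted p under 0.05 and a smallest adjusted p of 0.0723. The median interaction was 0.27 over the AP-1 genes and -0.01 over all probe sets. A larger GFP difference in Rag1-sufficient than in Rag1-/- mice was therefore not shown for any AP-1 gene.

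The effect of Rag1 loss was compared within each fraction. These comparisons reuse the arrays of the GFP comparisons, so their values are not independent of those above. Among GFP+ cells, 5 AP-1 genes (Fos, Fosb, Fosl2, Jun and Jund) were higher on both Rag1-/- arrays than on both Rag1-sufficient arrays, which held for 11% of all probe sets. The log2 differences, Rag1-/- minus Rag1-sufficient, were 0.47 ± 0.16 (SE) for Fosb, 0.46 ± 0.15 for Fos, 0.39 ± 0.16 for Jun, 0.25 ± 0.20 for Jund and 0.18 ± 0.21 for Fosl2. None was called, with adjusted p of 0.558, 0.512, 0.697, 0.887 and 0.935, and 3 of the 9 had an unadjusted p under 0.05. Of all probe sets, 0.246% were called and 1190 of 17445 had an unadjusted p under 0.05. Without replicate 1 or replicate 2 of the Rag1-sufficient GFP+ group, Jund was 0.40 or 0.10 and Fosl2 0.06 or 0.29.

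Among GFP- cells Fos, Fosb and Jun had the opposite sign. Fos, Fosb, Jun, Atf3 and Batf3 were lower on all 3 Rag1-/- arrays than on both Rag1-sufficient arrays, as were 17.6% of all probe sets. Jun differed by -0.52 ± 0.14 (SE), Fosb by -0.44 ± 0.15, Fosl1 by -0.44 ± 0.22, Fos by -0.38 ± 0.14 and Atf3 by -0.29 ± 0.13. No AP-1 gene was called, with adjusted p of 0.177, 0.214, 0.334, 0.232 and 0.291, 3 of the 9 at an unadjusted p under 0.05, and 0.143% of all probe sets called. At an unadjusted p under 0.05 there were 3014 of 17445 probe sets in this comparison. Without replicate 1 of the Rag1-/- GFP- group Fosl1 was -0.69, and without replicate 3 it was -0.305. The median of the 9 was -0.29 among GFP- cells and 0.18 among GFP+ cells, beside 0.00 and -0.02 over all probe sets.

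Marker lists of other cell types also differed with genotype. Summed genes of the T cell list were 1465 to 2311 on the Rag1-sufficient arrays and 2975 to 6248 on the Rag1-/- arrays. These cells were sorted as CD3-negative, and mice without Rag1 have no mature T cells, so the sums are not read as T cell content. The sum covered 6 of 8 listed markers. Of these, Cd3g averaged 912 to 1587 in the Rag1-sufficient groups and 2671.5 to 3457 in the Rag1-/- groups. For Rag1 loss 5 of the 6 were positive and 1 negative in each fraction. Cd8a averaged 59.3 and 64.8 in Rag1-sufficient GFP+ and GFP- cells, and 58.0 and 54.6 in those of Rag1-/- mice. The CD3 chain gene Cd3e was called higher in Rag1-/- GFP+ cells (2.68 ± 0.39, SE, adjusted p = 0.0419). In GFP- cells the 9 mast cell markers had a median of -1.25 for Rag1 loss, all negative, with 0 called and 6 at an unadjusted p under 0.05; in GFP+ cells their median was 0.495. For Rag1 loss in GFP- cells, 3 of 6 dendritic and Langerhans markers were positive and 3 negative (median -0.19), and Xcr1 was called lower (-0.72 ± 0.07, SE, adjusted p = 0.0125). H2-Ab1, an MHC class II gene of that list, was called lower with Rag1 loss averaged over fractions (-1.32 ± 0.17, SE, adjusted p = 0.0466). In that average too, 3 of the 6 markers were positive and 3 negative (median -0.1). Keratinocyte markers were negative in 7 of 7 for Rag1 loss in GFP- cells (median -0.85, 0 called, 5 at an unadjusted p under 0.05). In GFP+ cells they were negative in 6 of 7 (median -0.60, 0 called, 2 at an unadjusted p under 0.05). Their sums were 1006 to 2495 on the Rag1-sufficient and 634 to 1110 on the Rag1-/- arrays. The part of these markers, or of cells that bear them, in the AP-1 values was not tested. The ILC marker sum was 21930 to 25524 across the 9 arrays, but single ILC markers differed between groups. For GFP in Rag1-sufficient mice, 4 of the 9 kept were positive and 5 negative. Of these 9, 6 had an unadjusted p under 0.05 and 1 (Kit) was called lower. In that comparison 2264 of 17445 probe sets had an unadjusted p under 0.05. For Rag1 loss, 2 of the 9 had an unadjusted p under 0.05 in each fraction, with 0 called.

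Averaged over genotypes, Jun was the AP-1 gene called for the GFP fraction, at -0.81 ± 0.11 (SE, adjusted p = 0.0318), where 0.212% of all probe sets were called. Fos averaged -0.50 ± 0.10 (SE, adjusted p = 0.134) and Fosb -0.30 ± 0.11 (SE, adjusted p = 0.543). The Jun call was lost in 8 of 9 fits that left out an array (adjusted p of 0.0575 to 0.225) and held without replicate 1 of the Rag1-/- GFP+ group (adjusted p = 0.0237). It was also lost after quantile normalization (adjusted p = 0.0572). Averaged over fractions, Rag1 loss gave -0.25 ± 0.10 (SE) for Atf3 and 0.23 ± 0.14 for Jund. Neither was called (adjusted p = 0.446 and 0.639), where 0.086% of all probe sets were called. An unadjusted p under 0.05 was held by 1 of 9 AP-1 genes and by 1717 of 17445 probe sets.

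Within the family, 3 genes varied together. Over the 9 arrays, Pearson's r of log2 values was 0.934 for Fos with Jun, 0.877 for Fos with Fosb and 0.774 for Fosb with Jun. Jun with Atf3 gave 0.607. In contrast, r was 0.0377 for Jun with Fosl2, 0.157 for Jun with Junb and 0.0977 for Fos with Fosl2, and the lowest value was -0.47 for Fosl1 with Jund. These are descriptions, since the points share their arrays and the differences between the same 4 groups. Atf3 and Batf3 are near neighbours in the genome, with 1 protein-coding gene starting between them, and their r was -0.163.

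The other genes of the pathway were grouped by role, first the bZIP proteins outside the family that pair with it or compete for its sites. Of 15 such genes kept of 16 listed, 0 were called for GFP in Rag1-sufficient mice, with 1 at an unadjusted p under 0.05 and a median of 0.08. That gene was Bach2, a repressor that competes with AP-1 in lymphocytes (-0.86 ± 0.20, SE, adjusted p = 0.113). Its relative Bach1 differed by -0.32 ± 0.18 (SE, adjusted p = 0.547). In this comparison 2264 of 17445 probe sets had an unadjusted p under 0.05, and 46.4% were negative. Among 17 of 20 upstream MAP kinases and promoter factors, 0 were called and 0 had an unadjusted p under 0.05, with a median of -0.01. Map3k1, a kinase upstream of JNK, had -0.35 ± 0.19 (SE, adjusted p = 0.495) and Srf, the serum response factor that acts on the Fos promoter, had 0.36 ± 0.19 (SE, adjusted p = 0.497). Of the 8 factors that bind composite sites with AP-1, 0 were called and 1 had an unadjusted p under 0.05. Runx1 had -0.54 ± 0.22 (SE, adjusted p = 0.353) and Nfatc2 0.35 ± 0.20 (SE, adjusted p = 0.529).

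MAP kinase inhibitors, many of them induced by the pathway they damp, were negative for 12 of 14 genes in the same comparison, with a median of -0.29. Spry2, a Sprouty protein that restrains RAS signalling, was the 1 called (-0.57 ± 0.09, SE, adjusted p = 0.0256). It averaged 64.3 ± 0.90 (SD, n = 2) in Rag1-sufficient GFP+ cells and 96.0 ± 4.30 (SD, n = 2) in Rag1-sufficient GFP- cells. In Rag1-/- mice Spry2 averaged 108 ± 7.21 (SD, n = 2) in GFP+ cells and read 93.0 on all 3 GFP- arrays, a repeated value. The lower Rag1-sufficient GFP- array held the same value. The lack of spread in the Rag1-/- GFP- group is not a measure of error, yet it enters the SE of every Spry2 difference. Spry2 was called higher with Rag1 loss in GFP+ cells (0.74 ± 0.09, SE, adjusted p = 0.0162). Its GFP difference in Rag1-/- mice was 0.21 ± 0.08 (SE, adjusted p = 0.688), and its interaction of 0.78 ± 0.12 (SE) did not pass (adjusted p = 0.0723). Dusp1, a MAP kinase phosphatase, had an average GFP difference of -0.30 ± 0.06 (SE, adjusted p = 0.133).

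Genes known from other work as AP-1 targets did not move one way. Of 16 kept of 20 listed, 1 was called lower and 1 higher in GFP+ cells of Rag1-sufficient mice, 11 were negative, and the median was -0.22. Ptgs2, which encodes the inducible cyclooxygenase, averaged 117 ± 9.30 (SD, n = 2) in GFP+ and 301 ± 23.4 (SD, n = 2) in GFP- cells (-1.35 ± 0.23, SE, adjusted p = 0.0420). Mmp10, a matrix metalloproteinase gene, averaged 135 ± 13.3 (SD, n = 2) in GFP+ and 76.0 ± 2.48 (SD, n = 2) in GFP- cells (0.82 ± 0.13, SE, adjusted p = 0.0319). With Rag1 loss in GFP+ cells, Ptgs2 rose to 354 ± 62.0 (SD, n = 2; 1.58 ± 0.23, SE, adjusted p = 0.0419). Mmp10 fell there to 63.2 ± 8.15 (SD, n = 2; -1.09 ± 0.13, SE, adjusted p = 0.0174), and also fell with Rag1 loss averaged over fractions (-0.78 ± 0.09, SE, adjusted p = 0.0392). That averaged Mmp10 call held in 3 of 6 other processing settings, and its value was -0.843 to -0.713 with an array left out. The Ptgs2 interaction was 1.70 ± 0.31 (SE, adjusted p = 0.143). In Rag1-/- mice 0 targets were called for GFP and 2 had an unadjusted p under 0.05, Lif at -0.48 ± 0.09 (SE) and Csf2 at -0.60 ± 0.19 (SE), both with an adjusted p of 0.688. Without each Rag1-sufficient array in turn, the GFP differences of Spry2, Ptgs2 and Mmp10 in Rag1-sufficient mice kept their sign and were not called, with adjusted p of 0.181 to 0.207 for Spry2, 0.207 to 0.262 for Ptgs2 and 0.125 to 0.235 for Mmp10. The calls of these genes for Rag1 loss in GFP+ cells were likewise lost in each of those fits, and in the fit of only the groups compared (adjusted p = 0.560 for each). Among all other processing settings with every array kept or only the groups compared, these calls held in 5 of 8 for Spry2, 3 of 8 for Ptgs2 and 4 of 7 for Mmp10. Without replicate 2 of the Rag1-/- GFP- group, none of the calls of Spry2, Ptgs2 and Mmp10 held (adjusted p of 0.0507 to 0.101).

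Other immediate early genes were mostly negative, as Fos and Jun were. For GFP in Rag1-sufficient mice 16 of 18 were negative with a median of -0.34, while 0 were called and 8 had an unadjusted p under 0.05. Over the whole array 46.4% of probe sets were negative in this comparison, and 2264 of 17445 had an unadjusted p under 0.05. Nr4a1, an orphan nuclear receptor gene, had -0.53 ± 0.14 (SE, adjusted p = 0.159) and Ccn1, a matricellular protein gene, -0.96 ± 0.26 (SE, adjusted p = 0.172). In Rag1-/- mice 7 of 18 were negative with a median of 0.03. For Rag1 loss in GFP- cells 14 of 18 were negative with a median of -0.28, none called and 8 at an unadjusted p under 0.05. There Myc had -0.81 ± 0.16 (SE, adjusted p = 0.0943) and Nr4a1 -0.54 ± 0.13 (SE, adjusted p = 0.145). Heat shock genes, which tissue digestion can induce, were negative for 6 of 9 kept in the GFP comparison of Rag1-sufficient mice, with a median of -0.21, 0 called and 1 at an unadjusted p under 0.05. Hspb1 had -0.74 ± 0.32 (SE, adjusted p = 0.369) and Hspa1a -0.51 ± 0.23 (SE, adjusted p = 0.402). Whether handling had a part in the AP-1 values was not tested.

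**Figure D5:**
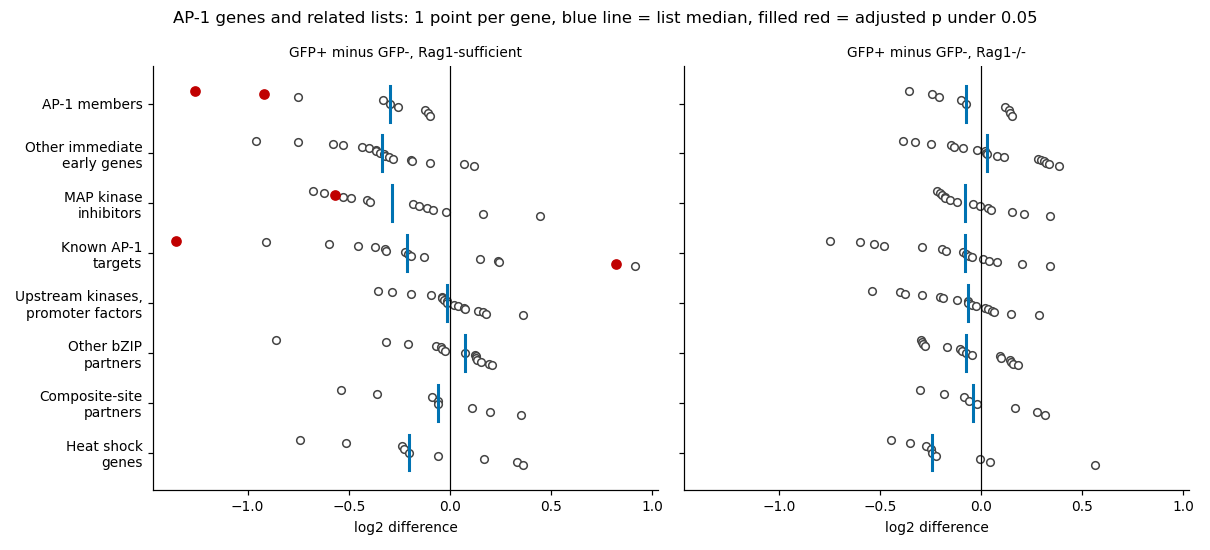
Log2 differences (horizontal axis) of the AP-1 genes and of the related lists, GFP+ minus GFP- in each genotype; each point is a gene, each blue line a list's median, and filled red points have an adjusted p under 0.05. In Rag1-sufficient mice the medians were -0.30 for AP-1 genes, -0.34 for other immediate early genes and 0.08 for other bZIP genes.

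The genes whose log2 levels were most like those of Fos over the 9 arrays were Nfkbid (r = 0.965), Plek (0.949), Vwa5a (0.946), Pim1 (0.940) and Ahnak (0.940). For Jun they were Pilra (r = 0.975), Cma1 (0.973), Serpinb1a (0.968), Rgs16 (0.966) and Pilrb1 (0.964). Cma1 encodes mast cell chymase and is in the mast cell list above. Of 17444 other probe sets, 23 had an r above 0.9 with Fos and 40 with Jun. Plek, which encodes pleckstrin, ran from 64.0 to 471 over the arrays, and its GFP difference in Rag1-sufficient mice was -2.67 ± 0.18 (SE, adjusted p = 0.00202). Nfkbid, an inhibitor of the NF-kB family, ran from 375 to 724, with a difference of -0.80 ± 0.15 (SE, adjusted p = 0.0650). These correlations describe 9 shared arrays and carry no test.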

How the data were processed

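Total RNA of sorted skin cells was hybridised to 1-colour Affymetrix arrays. The authors deposited 1 linear intensity per probe set and array in the series matrix; the submitters' processing notes name MAS5, with no version or role, and further normalization is not given in the sources used here. Arrays have no read depth; their number (2 or 3 per group) limits the precision.

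Intensities were taken as log2(value + 1), and probe sets in the lowest 30% by mean log2 value were left out (limit 41.6). A model with 1 mean for each of 4 groups was fitted to all 9 arrays with limma 3.58.1 in R 4.3.3 (eBayes with an intensity trend, 5 residual degrees of freedom), with Benjamini-Hochberg adjustment over 17445 probe sets and a threshold of 0.05. The code was tested on simulated data. Folds are on the log2(value + 1) scale. Genes were named through the platform annotation. Named were all 9 AP-1 genes; of each list the called genes (at most 4 per comparison) or, with none called, at most the 2 of smallest p; and the 5 genes most correlated with Fos and with Jun. Marker genes are given by list, with Id2, Il7r, Cpa3, Kit, Xcr1, H2-Ab1, Cd3e, Cd3g and Cd8a named as examples after their values were seen.

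The AP-1 genes and the lists were chosen with earlier results of these data known. Alternatives were a pseudocount of 16, no filter, a 50% filter, quantile normalization, no trend, array weights, a replicate block, a fit of only the groups compared and leaving out each array. Lists of genes were not given set tests.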

Additional observations from a re-analysis of the deposited data

Results flagged for a closer look

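For 3 AP-1 genes the Rag1 difference pointed opposite ways in the GFP fractions on every array: Rag1-/- arrays were above all Rag1-sufficient arrays among GFP+ cells and below them among GFP- cells. Singly, the first order held for 11% and the second for 17.6% of all probe sets. The share of probe sets with both orders was not counted. The values that follow use the same arrays that picked these genes. The difference between fractions, which is the interaction tested by limma, was 0.845 ± 0.203 (SE, adjusted p = 0.232) for Fos, 0.904 ± 0.216 (SE, adjusted p = 0.229) for Fosb and 0.905 ± 0.212 (SE, adjusted p = 0.229) for Jun. None passed the threshold. Over the alternatives and the fits leaving out an array, the interaction had adjusted p of 0.0716 to 0.669 for Fos, 0.0612 to 0.669 for Fosb and 0.0516 to 0.669 for Jun. Groups of 2 and 3 arrays were too small for a check of single outlying arrays.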

How the results depend on the processing

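Of 1086 recomputed values of named genes (65 results), 942 kept their direction and side of the threshold, 125 lost a call, 16 gained one and 3 changed sign. Most of the 65 results were not called in the main fit and could not lose a call. All 125 losses therefore fell on the smaller part that was called, and the 942 do not measure how stable the calls were. The sign changed for Fos in the GFP comparison of Rag1-/- mice, to 0.0739 after quantile normalization, and for Fosl2 in that of Rag1-sufficient mice, to 0.0126 without replicate 1 of the GFP+ group (range with an array left out -0.226 to 0.0126); for Ccr10 in Rag1-/- mice the range was -0.212 to 0.403. None of these was called. For GFP in Rag1-sufficient mice, 2 AP-1 genes were called, 3 with array weights (Fosb added), 1 in the fit of only the groups compared and 0 to 2 with an array left out. Averaged over genotypes, 1 was called, 0 after quantile normalization and 0 to 1 with an array left out. For Rag1 loss in GFP- cells, 0 were called and 1 with array weights (Jun, adjusted p = 0.0338). With an array left out, the marker calls held in 4 of 9 fits for Kit, 5 of 9 for Xcr1 in each comparison and 2 of 9 for Cd3e and for H2-Ab1. The replicate block called 1 AP-1 gene for GFP in Rag1-sufficient mice (Jun, adjusted p = 0.0473; the Fos call was lost, adjusted p = 0.0990) and 0 averaged over genotypes. Deviations of same-numbered arrays from their group means had correlations of -0.507 to 0.237 between groups. In a group of 2 arrays the deviations mirror each other, so this check cannot tell whether the numbers pair the samples.

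Counts over the whole array moved more. For GFP in Rag1-sufficient mice, 140 probe sets were called, 1290 with array weights (424 of them lower, against 82 of 140), 73 with the replicate block and 3 to 335 with an array left out. For Rag1 loss in GFP+ cells the count was 43, and 17 with quantile normalization (58.8% lower, against 79.1%), 3 with no trend, 2 with the replicate block, 0 in the fit of only the groups compared and 1 to 135 with an array left out. In GFP- cells it was 25, and 43 with a pseudocount of 16, 9 with the 50% filter, 1168 with array weights, 6 with the replicate block, 8 in the fit of only the groups compared and 1 to 139 with an array left out. For GFP averaged it was 37, 6 with the replicate block and 0 to 136 with an array left out. For Rag1 loss averaged it was 15, 5 with no filter, 33 with quantile normalization (51.5% lower, against 33.3%), 64 with array weights, 9 with the replicate block and 2 to 64 with an array left out. For the interaction it was 0, 1 with the 50% filter and with quantile normalization, 31 with array weights and 0 to 500 with an array left out. For GFP in Rag1-/- mice it was 0, and 0 to 7 with an array left out. The cause was not tested.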
